A study of Homo sapiens with 24 samples.

Results

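RT-112 is a human bladder cancer cell line with urothelial features, and the lines derived from it are labelled by their CD44 expression. Here the 3 libraries of the RT-112 line labelled CD44v6 were compared with the 3 libraries of the RT-112 line labelled CD44 Low, across all genes of the deposited table. These are 6 of the 24 RNA sequencing libraries of the study, which also holds parental RT-112 cells, an RT-112 line labelled CD44 High and the same 4 groups of J82, another bladder cancer line. Every group has 3 libraries labelled as biological replicates. The labels mark the CD44v6 line as high for CD44v6 and name no other treatment or genotype. How the lines were made, and whether each is a single clone or a sorted population, is not given in the sources used here. The table lists 35993 gene symbols, of which 15645 had enough reads in RT-112 to be tested.

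CD44 is a transmembrane receptor for the matrix polysaccharide hyaluronan. Its transcript is alternatively spliced, and isoforms that include the variant exon v6 can act as co-receptors for growth factor receptors such as MET. In the urothelium CD44 is a marker of basal cells, which express KRT5 and TP63 and lie beneath intermediate and umbrella cells that express uroplakins and KRT20. Counts per gene add up all CD44 transcripts, so the v6 isoforms themselves are not measured in these values.

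The 6 libraries held 17610543 to 24419670 counts, with 18971 to 19773 genes detected in each. Epithelial markers were present in all of them: KRT7 at 3810 to 4860 CPM (counts scaled to library size with TMM factors), EPCAM at 261 to 434 CPM and GATA3 at 29.7 to 46.7 CPM. PTPRC, ITGAM, COL1A2, PDGFRB, DCN, THY1 and MYH11, which mark leukocytes, fibroblasts and muscle, were at 0 in all 6 libraries. Other markers were not: CD68 had 172 to 264 counts, COL1A1 33 to 105 and the endothelial marker PECAM1 15 to 46. LYZ and the endothelial marker CDH5 reached 17 and 28 counts. The 58 genes that were abundant in parental J82 and nearly absent from parental RT-112 summed to 3.02 to 5.34 CPM here, against 8320 or more CPM in J82 CD44v6 and CD44 Low. On the first principal component of the 12 RT-112 libraries (28.2% of the variance), CD44 Low lay at -47.9, -40.3 and -36.4 and CD44v6 at 13.1, 11.6 and 41. CD44v6 replicate 3 stood apart from the others of its group. Mitochondrial transcripts took 0.681% to 0.703% of the counts in CD44v6 and 0.297%, 0.315% and 0.707% in CD44 Low, where replicates 1 and 2 were low. The summed level of the fibroblast and muscle markers was 214 to 259 CPM in CD44 Low and 128 to 185 CPM in CD44v6, nearly all of it LUM (2217 to 6246 counts), while the leukocyte markers summed to 9.98 to 13.1 CPM. The part of these shares in the results was not tested. Summed CPM values in this paragraph were scaled to total counts without TMM factors.

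Of the 15645 genes, 2504 (16%) differed between the groups at an adjusted p under 0.05 (edgeR quasi-likelihood test, Benjamini-Hochberg adjustment). They divided evenly, with 1247 genes (7.97%) higher in CD44v6 and 1257 (8.03%) lower, and the median over all tested genes was 0.00268 on the log2 scale. Most differences were modest: the median absolute change of the called genes was 0.613, and 209 genes were more than 1 log2 unit higher and 276 more than 1 lower. The 6 libraries did not overlap between the groups for 2476 of the called genes, a property shared by 37.1% of all tested genes. Counting strand is not given in the sources used here, so reads of antisense neighbours cannot be told apart from those of CD44, CD109, HMGA2, PTHLH, CPVL, H19, FLG and COLCA1. CD44v6 against CD44 High gave 0 called genes (edgeR; 665 at an unadjusted p under 0.05), and CD44 High against CD44 Low, which shares the CD44 Low libraries, gave 2507. Fewer genes were called when CD44v6 replicate 3 (1004), CD44 Low replicate 1 (1156), CD44 Low replicate 2 (1396) or CD44v6 replicate 2 (1645) was left out.

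CD44 itself was measured at 502, 437 and 373 CPM in the CD44v6 libraries and at 117, 147 and 151 CPM in the CD44 Low libraries. All CD44v6 libraries lay above all CD44 Low libraries. The log2 fold change was 1.66 (SE 0.15, adjusted p = 6.26e-05). Parental RT-112 cells had 316, 347 and 293 CPM, between both lines. CD44 Low against parental cells gave -1.20 (log2, adjusted p = 0.00123), and CD44v6 against parental cells gave 0.46 (adjusted p = 0.163). The other tested members of the hyaluronan list did not pass the test, among them HMMR, a hyaluronan-binding protein of the spindle, at 203 ± 39.8 CPM (SD, n = 3) in CD44v6 and 208 ± 14.9 CPM in CD44 Low. Of 11 tested partners of CD44, 2 rose and 2 fell, a called share of 36.4% beside 16% of all tested genes. Of these, EGFR (higher) and ADAM10 (lower), a protease that can cleave the CD44 ectodomain, kept their calls whichever of the 6 libraries was left out. ADAM10 had 178, 164 and 132 CPM in CD44v6 and 315, 299 and 317 CPM in CD44 Low, a change of -0.97 (SE 0.19, adjusted p = 0.00546). MET had 286 ± 34.1 and 237 ± 25.8 CPM and did not pass (adjusted p = 0.124). Regulators of CD44 exon inclusion showed no call except SND1, whose call was lost without CD44 Low replicate 1, CD44 Low replicate 2 or CD44v6 replicate 1 and after correction for GC content (0.18, adjusted p = 0.0884). The epithelial splicing regulators ESRP1 and ESRP2 changed by -0.06 and -0.12 and did not pass.

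Among the 14 largest increases of well-expressed genes, MMP13, a collagenase, was at 32.1, 25.2 and 17.7 CPM in CD44v6 and at 3.22, 3.43 and 2.21 CPM in CD44 Low, and its log2 fold change was 3.07 (adjusted p = 0.000171). NT5E, also called CD73, is a surface enzyme that makes extracellular adenosine. It had 75.1, 61.4 and 70.0 CPM against 9.7, 11.2 and 12.2 CPM, and rose by 2.64 (SE 0.20, adjusted p = 2.69e-05). CD109, a membrane-anchored TGF-beta co-receptor, had 10.8, 9.07 and 20.9 CPM against 2.63, 1.93 and 2.97 CPM (log2 fold change 2.44, adjusted p = 0.00658). Its highest value was in CD44v6 replicate 3. Lack of overlap between the groups was a condition for naming the 14 increases and 14 decreases. HMGA2, a chromatin protein of embryonic and tumour cells, reached 20.4, 17.3 and 18.4 CPM against 2.63, 3.3 and 4.69 CPM, a rise of 2.41 with little spread within CD44v6. PTHLH, the parathyroid hormone-related protein, had 59.8, 57.4 and 70.8 CPM against 8.28, 16.3 and 15.2 CPM and rose by 2.24. AREG, a ligand of EGFR, had 31.4, 23.7 and 22.4 CPM against 4.93, 7.21 and 6.96 CPM and rose by 2.02 (adjusted p = 0.000104).

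The remaining large increases covered several functions. H19, an imprinted long noncoding RNA, was the most abundant of them, at 1044, 570.2 and 771 CPM against 196, 256 and 234 CPM, and its log2 fold change was 1.80 (SE 0.19). IGF2, the growth factor encoded beside H19, also rose, by 1.57 (adjusted p = 0.000737), from 35.9, 57.6 and 60.6 CPM in CD44 Low to 188, 139 and 129 CPM in CD44v6. LIPG, a phospholipase secreted by endothelial and other cells, rose by 2.22, the serotonin receptor HTR7 by 2.05, the ferric reductase CYBRD1 by 1.92, the carboxypeptidase CPVL by 1.80 and the scavenger receptor SCARA3 by 1.80. Their adjusted p-values lay between 6.26e-05 (CYBRD1) and 0.00014 (CPVL). Of the 14, 2 were histone genes, H2BC3 (2.27) and H3C3 (2.05), members of a cluster on chromosome 6.

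Among the 14 largest decreases, DHRS2, a short-chain reductase, fell from 49.7, 52.4 and 38.5 CPM in CD44 Low to 5.95, 4.23 and 4.59 CPM in CD44v6, a log2 difference of -3.25 (SE 0.15, adjusted p = 2.94e-07). This was the smallest adjusted p among the 28 genes. KRT20, a keratin of umbrella cells, had 12.2, 23.5 and 21.2 CPM in CD44 Low and 6.39, 3.2 and 1.22 CPM in CD44v6, where replicate 3 was lowest (-2.37, adjusted p = 0.00963). HPGD, which inactivates prostaglandins, had 133, 105 and 85.2 CPM against 32.2, 26.2 and 27.5 CPM (-1.91, SE 0.18, adjusted p = 9.41e-05). The tight junction gene TJP3 changed by -2.03, the epidermal barrier gene FLG by -2.05, the amino acid transporter SLC6A14 by -2.16, the corepressor TLE6 by -2.52 and COLCA1 by -2.29. POF1B, an actin-binding epithelial protein, changed by -1.82, DENND2D and DOCK11, exchange factors for small GTPases, by -1.81 and -1.78, and the monocarboxylate transporter SLC16A7 by -1.75.

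ALPG, an alkaline phosphatase of germ cells, had the largest decrease, with 94.4, 71.6 and 47.4 CPM in CD44 Low and 4.8, 6.6 and 10.5 CPM in CD44v6 (-3.30, adjusted p = 0.000338). It has a near-identical neighbour, ALPP, so the division of reads between them is uncertain. UGT1A3, a glucuronosyltransferase, is uncertain as well, since it shares exons with 8 other UGT1A genes. Its change of -2.45 (adjusted p = 0.0385) no longer passed when either of CD44 Low replicates 1 and 2 or any CD44v6 library was left out, with adjusted p-values of 0.0835 to 0.112. In the parental cells the mean of each of these 28 genes lay between the means of CD44v6 and CD44 Low. Over all called genes this held for 90.5%, and over all tested genes for 49.7%.

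**Figure D1:**
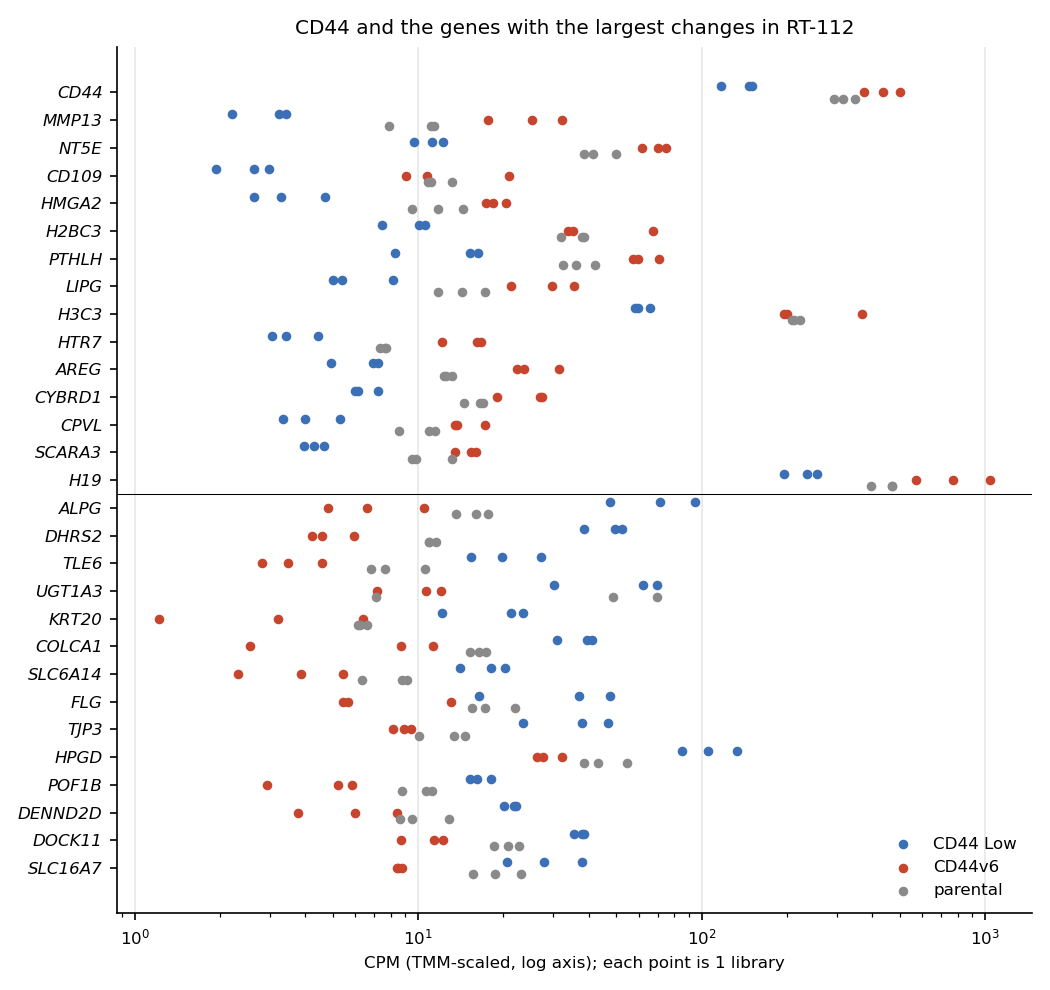
Levels of CD44 and of the 14 largest increases (above the line) and 14 largest decreases (below it), in CPM on a log axis. Each point is 1 library of CD44 Low, CD44v6 or parental RT-112 cells. The CD44v6 points lie apart from the CD44 Low points, which was a condition for choosing all genes but CD44.

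Genes of basal and luminal urothelium were read as separate lists. Of 20 tested basal genes, 9 rose and 2 fell, and their median was 0.469, beside 0.00268 over all genes. Their called share was 55%, beside 16% of all tested genes. KRT5, the keratin that defines basal cells, had 650.5, 601 and 808 CPM in CD44v6 and 321, 368 and 387 CPM in CD44 Low (0.94, SE 0.12, adjusted p = 0.000434). The basal transcription factor TP63 had 152, 156 and 138 CPM against 73.5, 84.6 and 103 CPM and rose by 0.78. The hemidesmosome integrins ITGA6 and ITGB4 rose by 0.87 and 0.84, the AP-1 factor FOSL1 by 1.38, KRT6A by 1.15 and P-cadherin (CDH3) by 0.62. KRT16, a keratin also induced in wounded epithelium, went the other way, from 105, 112 and 77.9 CPM to 62.2, 44.6 and 49.7 CPM (-0.91, adjusted p = 0.00172). In cultures of this kind, fewer cells of a type and less RNA per cell cannot be told apart. The number of basal genes that rose was 9 whichever of the 6 libraries was left out, while the number that fell was 1 without any of them but CD44 Low replicate 3.

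Of 23 tested luminal genes, 10 fell and none rose, with a median of -0.341 (edgeR; 1 was higher at an unadjusted p under 0.05, and DESeq2 called 0 higher). UPK1B, a uroplakin of the umbrella cell membrane, had 663, 644 and 705 CPM in CD44 Low and 471, 460.0 and 373 CPM in CD44v6, without overlap (-0.62, SE 0.13, adjusted p = 0.00735). KRT19 had 3564, 3649 and 2766 CPM against 2455, 2382 and 2147 CPM (-0.51, adjusted p = 0.00486). UPK1A, another uroplakin, changed by -2.08 from a low level of 4.91 CPM. The luminal regulators PPARG (-0.22) and KLF5 (0.16) and the keratin KRT18 (-0.07) did not pass. Leaving out single libraries left 4 luminal genes lower without CD44 Low replicate 1, 6 without replicate 2 and 9 without replicate 3, and 5 without any one CD44v6 library. In these fits the number of luminal genes called higher was 0 or 1. The called share of the luminal list in the main fit was 43.5%, beside 16% of all tested genes. After correction for GC content and transcript length, 11 basal genes were higher and 11 luminal genes lower.

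Of 15 tested markers of squamous differentiation, 4 fell and 2 rose, a called share of 40% beside 16% of all tested genes. SERPINB3, a squamous cell serpin, had 17.4, 13.1 and 17.6 CPM in CD44 Low and 2.51, 1.75 and 2.65 CPM in CD44v6 (-2.79, adjusted p = 0.000104). Without CD44v6 replicate 3, 1 of these genes was lower and 1 higher, and without CD44v6 replicate 2, 2 were lower. Of 21 genes of the epithelial state, 2 rose and 3 fell, with a median of -0.0354. Their called share was 23.8%, beside 16% of all tested genes. CLDN1 (0.98) and OVOL1 (0.56) rose, and TJP3 (-2.03), CGN (-0.88) and GRHL1 (-0.51) fell. OVOL1 did not pass without CD44 Low replicate 2 or 3 or CD44v6 replicate 1, nor GRHL1 without CD44 Low replicate 1 or 2 or CD44v6 replicate 2 or 3, while E-cadherin (CDH1) was at 335, 339.8 and 347 CPM and 364, 340.4 and 343 CPM and did not pass (adjusted p = 0.791). Of 12 tested mesenchymal genes, 4 rose and 2 fell (1 without CD44 Low replicate 1, CD44v6 replicate 2 or CD44v6 replicate 3). The list median was -0.226, with a called share of 50%. The decreases were in smooth muscle actin (ACTA2, -1.40, adjusted p = 0.0123) and the repressor ZEB1 (-2.54, adjusted p = 0.0193). ACTA2 did not pass without CD44v6 replicate 3 or with all 24 libraries fitted, nor ZEB1, at 1.39 CPM or less, without CD44 Low replicate 1 or CD44v6 replicate 1 or 2. Fibronectin (FN1) had 868, 689 and 511 CPM in CD44v6 and 192, 207 and 233 CPM in CD44 Low, without overlap (1.71, SE 0.23, adjusted p = 0.000673). The matrix glycoproteins THBS1 and TNC rose by 1.24 and 2.43, TNC from a low level of 1.24 CPM. Vimentin (VIM) stayed at trace levels, 1.44 ± 0.501 CPM and 1.5 ± 0.897 CPM (SD, n = 3), and did not pass.

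Ligands and receptors of the EGFR family and feedback genes of the ERK kinases were read as separate lists. Which receptor the feedback genes answered to was not tested. Of 11 tested ligands and receptors of the EGFR family, 3 rose and 3 fell, a called share of 54.5% beside 16% of all tested genes. Among ligands, AREG rose as above, and HBEGF had 61.5, 45.5 and 59 CPM in CD44v6 against 28.9, 31.8 and 22.7 CPM in CD44 Low (0.99, adjusted p = 0.00486). TGFA had 26.9 ± 1.67 and 20.2 ± 4.47 CPM and did not pass (adjusted p = 0.0613). Among receptors, EGFR had 196, 201 and 184 CPM against 102, 109 and 143 CPM (0.71, SE 0.12, adjusted p = 0.00231), and ERBB3, which pairs with ERBB2 and binds neuregulins, went from 118, 102 and 101 CPM to 80.6, 74.1 and 83.1 CPM (-0.43, adjusted p = 0.013). The ERBB3 call was lost without CD44 Low replicate 1 or CD44v6 replicate 2. ERBB2 (-0.31, adjusted p = 0.0311) and NRG4 were also called lower, but neither without CD44 Low replicate 1 or CD44v6 replicate 1 or 3. Of 18 feedback and target genes of the ERK kinases, 10 rose and none fell, with a median of 0.361 and a called share of 55.6%. In edgeR 0 were lower at an unadjusted p under 0.05, and DESeq2 called 0 lower. DUSP6, a phosphatase that switches ERK off, had 107, 85.6 and 106 CPM against 38.3, 44.6 and 38.1 CPM, with clear separation (1.31, SE 0.10, adjusted p = 2.86e-05). FOSL1 rose by 1.38 and the related phosphatase DUSP7 by 1.11, while MYC (-0.13) did not pass. The count of ERK genes that rose was 6 after correction for GC content and length and between 3 and 6 with single libraries left out, lowest without CD44 Low replicate 2 and 4 without CD44v6 replicate 3. FGFR3, a growth factor receptor often altered in urothelial tumours, had 302, 294 and 297 CPM against 211, 234 and 196 CPM (0.48, adjusted p = 0.00258).

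YAP1 and its DNA-binding partners of the TEAD family read out cell density and tension. Of 23 tested targets, 9 rose and 2 fell, with a median of 0.398 and a called share of 47.8%, beside 16% of all tested genes. Of the 6 factors themselves 1 rose, a share of 16.7% near that of all genes. It was YAP1 (0.37), which did not pass without CD44 Low replicate 1 or 2 or CD44v6 replicate 1. ANKRD1, a stretch-responsive nuclear protein, had 35.3, 32.4 and 34.2 CPM in CD44v6 and 13.3, 10.02 and 7.66 CPM in CD44 Low (1.71, SE 0.20, adjusted p = 0.000252). The receptor kinase AXL had 35.9, 33 and 64.3 CPM against 12.1, 11.3 and 22.8 CPM (1.53, adjusted p = 0.00914), highest in replicate 3 of both groups. NT5E belongs to this list as well. The classical targets CCN1 (0.40) and CCN2 (0.31) did not pass. Over the 29 targets and factors, 10 rose, and 6 to 9 did with single libraries left out, with 6 without CD44 Low replicate 1, CD44 Low replicate 2 or CD44v6 replicate 3.

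The promoter of ANKRD1 is shown because it holds the hexamer GGAATG, the letters of the TEAD element, more than once. The stretch is the 250 bases before the start site at chr10:90921088-90921337 (RefSeq, GRCh38.p14, minus strand, written 5′ to 3′), with GGAATG in capitals.
ANKRD1: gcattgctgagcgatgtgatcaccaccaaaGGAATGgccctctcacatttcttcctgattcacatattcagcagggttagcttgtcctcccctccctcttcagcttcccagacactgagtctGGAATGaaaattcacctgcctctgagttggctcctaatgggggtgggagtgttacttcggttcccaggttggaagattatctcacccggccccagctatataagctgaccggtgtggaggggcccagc
The matches begin 220 and 128 bases before the start. On either strand, GGAATG occurred in 7 of the 21 promoters of listed targets and factors with a sequence (33.3%), in 9.44% of the promoters of tested genes, in 9.07% of those called higher and in 10.3% of those called lower. A match describes letters and not binding.

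Among 24 tested genes of TGF-beta signalling, 7 rose and 2 fell, a called share of 37.5% beside 16% of all tested genes. BMP7, a ligand of the BMP branch, had 7.8, 5.15 and 7.85 CPM in CD44v6 and 0.502, 1.41 and 1.51 CPM in CD44 Low (2.62, adjusted p = 0.0006), TGFB1 rose by 0.65 and the latent binding protein LTBP2 by 0.79. Without CD44v6 replicate 3, 3 of these genes rose, and 4 did without CD44 Low replicate 1 or 3. In the matrix, the laminin chain LAMA3 (0.50) and collagen COL4A2 (0.60) were higher, as was the plasminogen activator PLAT, at 15.8, 11.8 and 15.5 CPM against 5.56, 5.49 and 6.1 CPM (1.33, adjusted p = 0.000338). Of 17 tested collagens, 29.4% were called, beside 16% of all tested genes: 3 rose and 2 fell. The latter, COL4A3 and COL4A5, did not pass without CD44 Low replicate 1 or 2 or CD44v6 replicate 1 or 3. The protease MMP28 changed by -0.97, and MMP14 (0.12) did not pass. WNT11 and the WNT antagonist DKK1 were the only called genes of 19 tested in the WNT list, and rose by 1.31 and 0.95. The called share of this list, 10.5%, was below the 16% of all tested genes. The NOTCH ligand JAG1 rose by 0.54. Of 7 tested stem-like markers, 0 were called by edgeR or DESeq2, and 0 had an unadjusted p under 0.05.

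Of 38 tested genes of mitosis, 19 rose and none fell, with a median of 0.398 and a called share of 50%, beside 16% of all tested genes. In edgeR 1 was lower at an unadjusted p under 0.05, and DESeq2 called 0 lower. UBE2C, which loads ubiquitin for the anaphase-promoting complex, had 167, 167 and 154 CPM in CD44v6 and 60.4, 49.6 and 55 CPM in CD44 Low, with little spread in either group (1.57, SE 0.0912, adjusted p = 2.12e-06). The phosphatase CDC25B had 72.7, 65.6 and 77.2 CPM against 33.4, 36 and 34 CPM (1.06). The kinase PLK1 had 97.7, 99.6 and 85.7 CPM against 51, 49.7 and 55.1 CPM (0.86, adjusted p = 0.000153). AURKA rose by 0.96, AURKB by 0.92, CDC20, the activator of the anaphase-promoting complex, by 0.66 and the transcription factor FOXM1 by 0.60. The proliferation markers MKI67 (0.13) and TOP2A (0.24) did not pass. The kinetochore gene CENPF went the other way, with 791, 679 and 519 CPM against 1364, 1146 and 1489 CPM, and did not pass (-1.01, adjusted p = 0.125). Of the 19 genes, UBE2C, AURKA, TPX2 and CDC25B lie on chromosome 20, where all tested genes had a median of 0.21. The other 34 tested genes of the list had a median of 0.332, with 15 higher and none lower.

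The upstream sequences of PLK1 and CDC20 are shown because promoters of mitotic genes share short elements, the cell cycle homology region TTTGAA and the CCAAT box. Each is the 150 bases before the start site (RefSeq, GRCh38.p14, plus strand, 5′ to 3′), PLK1 at chr16:23678739-23678888 and CDC20 at chr1:43358831-43358980, with TTTGAA and CCAAT in capitals.
PLK1: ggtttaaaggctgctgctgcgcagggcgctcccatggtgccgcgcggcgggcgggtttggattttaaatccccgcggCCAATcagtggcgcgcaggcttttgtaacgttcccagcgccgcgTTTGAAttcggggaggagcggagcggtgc
CDC20: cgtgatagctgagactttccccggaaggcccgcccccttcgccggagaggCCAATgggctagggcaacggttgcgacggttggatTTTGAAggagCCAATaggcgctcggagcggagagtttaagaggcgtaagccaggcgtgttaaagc
TTTGAA began 29 bases before the start in PLK1 and 65 bases before it in CDC20. Within the 250 bases upstream and on either strand, TTTGAA was found in 8 of the 14 promoters of called mitotic genes with a sequence (57.1%) and CCAAT in 11 (78.6%). In the promoters of all tested genes the shares were 8.57% and 35.8%. The mitotic list as a whole, called or not, held TTTGAA in 16 and CCAAT in 25 of 32 promoters.

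Of 34 tested replication genes, 5 were called, a share of 14.7% near the 16% of all genes, with a median of 0.172. All 5 were higher, among them GINS1 (0.72) and POLA2 (0.60), and 2 or 3 rose without any one library but CD44v6 replicate 1. The helicase subunits MCM2 (-0.08), MCM4 (0.06) and MCM7 (0.21) did not pass. Replication-dependent histone genes had 26 of 39 members higher (66.7%), none lower and a median of 0.573. In edgeR 0 were lower at an unadjusted p under 0.05, and DESeq2 called 0 lower. H3C3 had 195, 199.99 and 368 CPM in CD44v6 and 65.7, 58 and 59.8 CPM in CD44 Low, and H4C13 had 244, 271 and 406 CPM against 114, 134 and 121 CPM, both highest in CD44v6 replicate 3. The linker histone H1-5 rose by 0.74. H2BC3 and H3C3 lie on chromosome 6, where all tested genes had a median of 0.116. Histone genes are near-identical copies, so reads can be divided between them and single members are uncertain. The count of histone genes that rose ranged from 16 to 32 with single libraries left out, and was 16 without CD44v6 replicate 3 and 16 without CD44 Low replicate 2. Of 20 genes of G1 control, 1 rose and 3 fell (0 without CD44 Low replicate 1 and 1 without CD44v6 replicate 3), among the latter RRM2B (-1.22) and ZMAT3 (-1.18), neither of which passed without CD44 Low replicate 1, and ZMAT3 not without CD44v6 replicate 3. CDKN1A (-0.39) and MDM2 (-0.54) did not pass. The called share of the G1 list was 20%, beside 16% of all tested genes.

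Of 19 tested genes of the interferon response, 7 fell and 1 rose, with a median of -0.141. The called share was 42.1%, beside 16% of all tested genes. MX2, an antiviral GTPase, had 15.4, 9.63 and 10.8 CPM in CD44 Low and 5.15, 4.12 and 5.25 CPM in CD44v6 (-1.30, adjusted p = 0.00262), and the tethering protein BST2 had 24.1, 23 and 17.3 CPM against 12.5, 9.95 and 7.85 CPM (-1.09). The exception was OAS3, which rose by 0.55. IRF1 (-0.11) did not pass. The number that fell was 3 without CD44v6 replicate 3 and 4 without CD44 Low replicate 1.

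Of 31 tested genes linked to the regulator NRF2 and to glutathione, 11 fell and 1 rose, with a median of -0.113. The called share was 38.7%, beside 16% of all tested genes. NQO1, a quinone reductase, had 399, 344 and 277 CPM in CD44 Low and 201, 226 and 209 CPM in CD44v6 (-0.68, SE 0.12, adjusted p = 0.00276), with CD44 Low replicate 1 highest. AKR1C3, an aldo-keto reductase with near-identical relatives among which reads can be divided, changed by -0.64. GSTP1 (0.07) and TXNRD1 (0.31) did not pass. The number that fell was 3 without CD44 Low replicate 1, 4 without CD44v6 replicate 3, 6 without CD44 Low replicate 2 or CD44v6 replicate 1, 7 without CD44v6 replicate 2 and 8 after correction for GC content and length. Of 22 xenobiotic genes, 7 fell and 1 rose (a called share of 36.4%), and 4 fell without CD44 Low replicate 1. The aldehyde dehydrogenase ALDH3A1 changed by -1.37 (adjusted p = 0.00126), beside DHRS2.

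Genes that handle anticancer drugs moved in both directions, with 7 of 38 higher, 4 lower and a median of 0.0153. Their called share was 28.9%, beside 16% of all tested genes. CDA, which inactivates the nucleoside drug gemcitabine, had 8.5, 9.54 and 12.6 CPM in CD44v6 and 4.39, 3.38 and 3.24 CPM in CD44 Low (1.47, SE 0.29, adjusted p = 0.00609). It lies in the first 5 runs of neighbouring genes on chromosome 1, described below, whose medians were 0.323 to 0.576. RRM2, a subunit of ribonucleotide reductase, which gemcitabine inhibits, rose by 0.69. The metal-binding protein MT2A had 5.51, 5.77 and 14.2 CPM against 0, 0.747 and 1.46 CPM, low levels with 1 CD44 Low library at 0. Among exporters, ABCC4 rose (0.60), whereas ABCG2, with 45.7, 32.7 and 37.1 CPM in CD44 Low and 21.4, 21.9 and 21.7 CPM in CD44v6, fell (-0.83, adjusted p = 0.00237), as did ABCC3 (-0.50), whose call was lost when all 24 libraries were fitted. Proteins that antibodies and inhibitors target at the cell surface included 4 higher and 7 lower of 17, with 4 lower without CD44 Low replicate 1 or 2 or CD44v6 replicate 1 or 2. The called share of these targets was 64.7%, beside the same 16%. CEACAM6, an adhesion protein, had 304, 269.7 and 260.2 CPM in CD44 Low and 127, 77 and 66.9 CPM in CD44v6 (-1.62, SE 0.22, adjusted p = 0.000664), and its relative CEACAM5 changed by -1.73. NECTIN4, the target of enfortumab vedotin, had 57 ± 9.5 CPM against 30.8 ± 6.25 CPM (-0.89, adjusted p = 0.00436), a call lost when all 24 libraries were fitted. CDCP1, a surface substrate of SRC kinases, rose by 0.77. TP63, CDH3, TGFB1, CDC20, FOXM1, H1-5, OAS3, ABCC3, ABCC4 and CDCP1 were chosen after their values were seen, as were ESRP1, ESRP2, CCN1, CCN2, MMP14, MCM7, VIM, YAP1 and ZEB1.

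**Figure D2:**
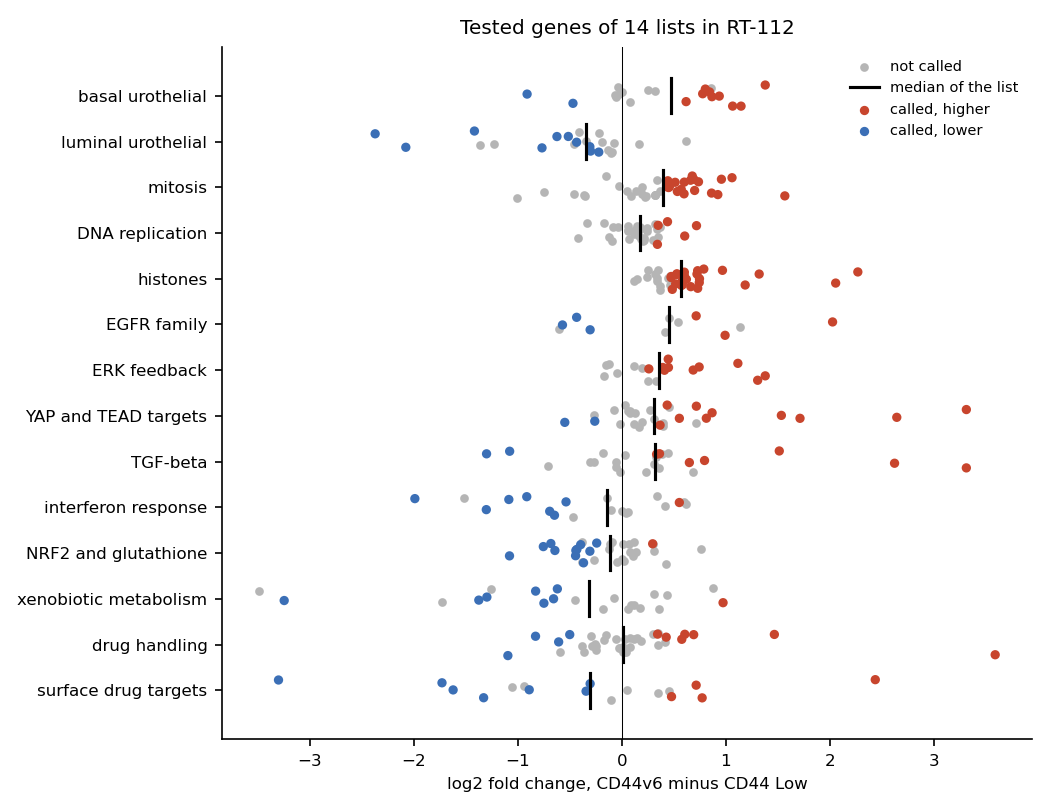
Log2 fold changes (CD44v6 minus CD44 Low) of the tested genes of 14 lists. Each point is 1 gene, red and blue points were called higher and lower, grey points were not called, and the black bar is the median of the list. Called points of the mitosis, histone and ERK feedback lists lie only on the higher side and those of the luminal list only on the lower side.

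Calls were unevenly spread over the chromosomes, which were followed in runs of 60 neighbouring tested genes. The first 5 runs of chromosome 1, from WASH7P to DNAJC8, held 300 genes, of which 135 were higher and none lower (edgeR; 2 were lower at an unadjusted p under 0.05, and DESeq2 called 0 lower). Their medians were 0.576, 0.564, 0.323, 0.433 and 0.509, and the next run, from ATP5IF1 to TRIM62, returned to -0.037. Against parental cells the same runs had medians of 0.176 to 0.318 in CD44v6 and of -0.332 to -0.215 in CD44 Low. CD44 High minus CD44 Low had medians of 0.426 to 0.597 in these runs, in a comparison that shares the CD44 Low libraries. The glycolytic enzyme ENO1, which lies in these runs, had 1650.3, 1497 and 2012 CPM in CD44v6 and 1048, 1018 and 1056 CPM in CD44 Low (0.72, adjusted p = 0.000663). Without CD44v6 replicate 3, 69 of the 300 genes were higher and none lower, and after correction for GC content and length 132 were higher and 1 lower. With single libraries left out, 0 or 1 of these genes were lower. Chromosome 20 had 95 higher and 13 lower of 398 genes (median 0.21), and chromosome 11, which carries CD44, MMP13, H19 and FOSL1, had 142 higher and 23 lower of 782 (median 0.189). BMP7, JAG1 and GINS1 also lie on chromosome 20, and WNT11 and POLA2 on chromosome 11. Chromosome 6, which carries NT5E, CD109, H2BC3 and H3C3, had 98 higher and 38 lower of 753 (median 0.116). Its first 4 runs had medians of 0.178, 0.251, 0.359 and 0.292. The histone genes of this chromosome, already counted in the histone list, were not taken out of these counts and medians. The part of position in the changes of single genes was not tested. Chromosome 4 leaned the other way, with 16 higher and 63 lower of 515 (median -0.142), and the last 5 runs of chromosome 1 had medians of -0.318 to -0.203.

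**Figure D3:**
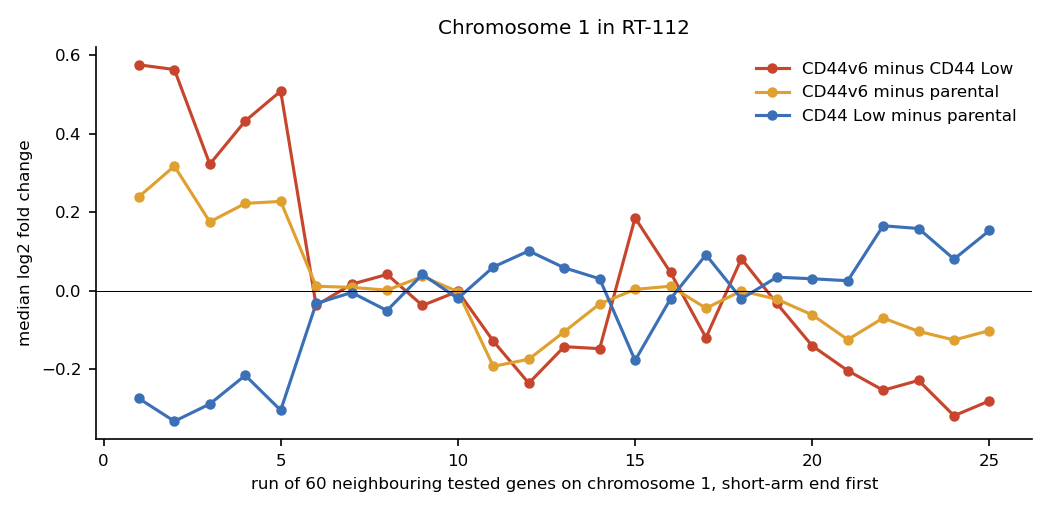
Median log2 fold change in 25 consecutive runs of 60 tested genes along chromosome 1, short-arm end first, for CD44v6 minus CD44 Low, CD44v6 minus parental and CD44 Low minus parental. The first 5 runs lie at 0.323 to 0.576 for CD44v6 minus CD44 Low and the following run at -0.037.

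Differences also varied with base composition. Among genes whose average log2 CPM was 3 or more, those with a transcript GC content under 40% had a median of -0.277, with 34 higher and 436 lower of 1634. Those at 60% or more had a median of 0.113, with 175 higher and 60 lower of 1217. The longest transcripts had a median of -0.115. All 3 CD44v6 libraries showed the low-GC decrease against the CD44 Low mean, with medians of -0.202, -0.256 and -0.374, the last in replicate 3. A correction for GC content and transcript length, added after the data were seen, gave 1342 genes higher and 1365 lower. CD44 (1.64), NT5E (2.62), KRT5 (0.82), UBE2C (1.51) and DHRS2 (-3.32) remained called under it. Of 201 called genes chosen by the naming rule or named in the text, 182 kept their call, 18 lost it and 1 was reversed. MGST1, a glutathione transferase of membranes, changed from -0.44 to 0.12 (adjusted p = 0.652).

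**Figure D4:**
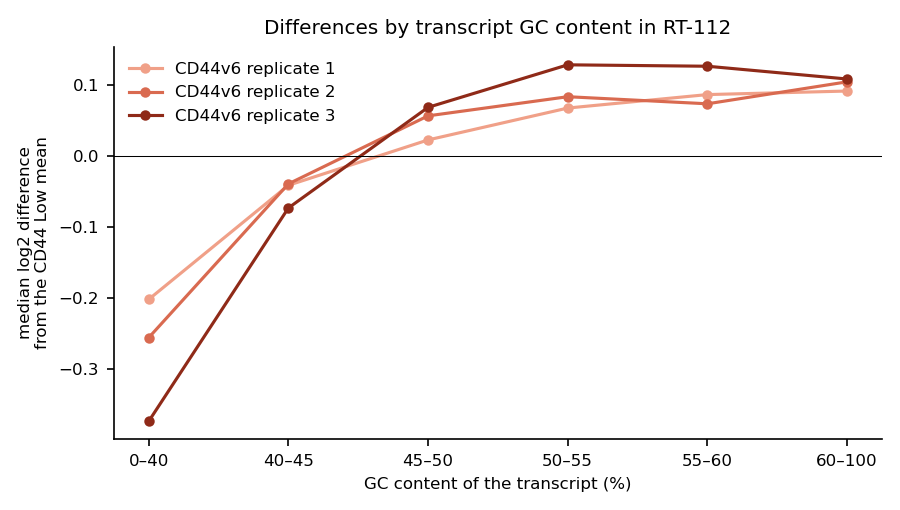
Median log2 difference of each CD44v6 library from the CD44 Low mean, by transcript GC content in percent. All 3 lines start below 0 in the bin under 40% GC, lowest for replicate 3 at -0.374, and lie above 0 from 45% GC upward.

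The same contrast was measured in J82, and the difference between the lines was tested over all 24 libraries. It passed for 1312 of 17438 genes (7.52%), 517 with a more positive change in RT-112 and 795 with a more negative one. CD44 rose by 1.52 in J82 (SE 0.17), and no difference from RT-112 was detected, with a value of 0.15 (SE 0.23, adjusted p = 0.793). NT5E rose in both lines and by more in RT-112, with a difference of 0.91 (adjusted p = 0.0143), while HMGA2 rose by 2.41 in RT-112 and 3.31 in J82 (difference -0.89, adjusted p = 0.257). Of the mitotic genes, UBE2C rose by 0.75 in J82 (difference 0.83, adjusted p = 0.00718) and CDC25B had -0.20, which did not pass there (adjusted p = 0.589; difference 1.27, adjusted p = 0.00113). ITGB4 had a value of -1.004 in J82, which did not pass (adjusted p = 0.0616; difference 1.86, adjusted p = 0.000577). FN1 had a value of -0.32 in J82 that did not pass (adjusted p = 0.476), with a difference of 2.05 (adjusted p = 0.00112). HPGD rose by 1.47 in J82 (difference -3.38, adjusted p = 9.56e-06). List genes in this paragraph were chosen after their values were seen.

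**Figure D5:**
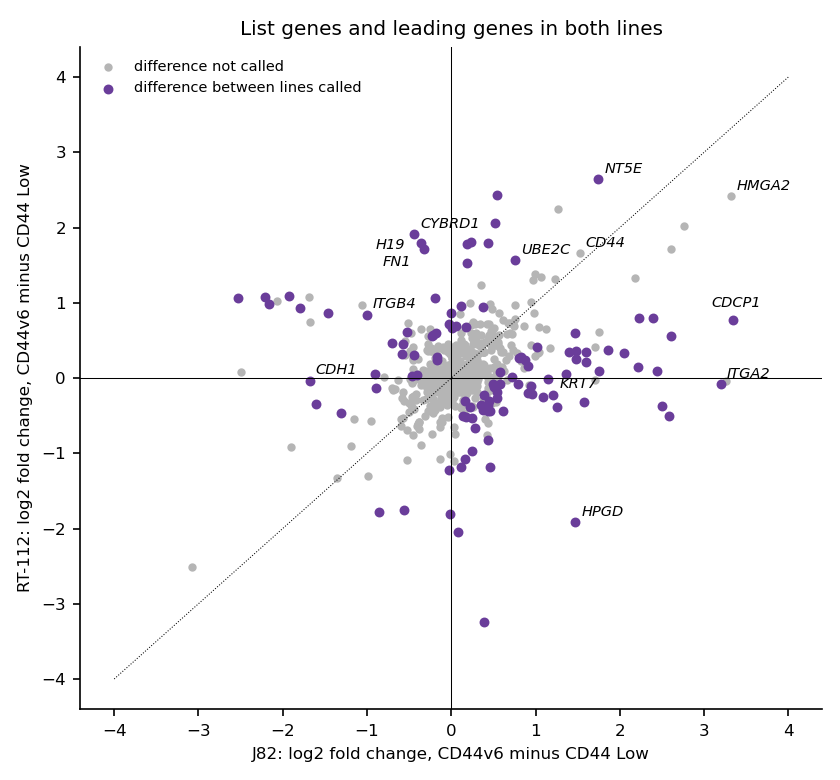
Log2 fold change of CD44v6 minus CD44 Low in J82 (horizontal) and RT-112 (vertical) for 628 list and leading genes tested in both lines and averaging a log2 CPM of 3 or more in RT-112. Purple points are the 109 genes whose difference between the lines was called, and the dotted line marks equal change. CD44 lies near the line, HPGD below it and FN1 above it.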

How the data were processed

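Total RNA of 24 libraries was sequenced, 3 biological replicates in each of 8 groups, per the labels. The authors deposited 1 table of raw read counts per gene symbol. The submitters' processing notes name HISAT2, StringTie and GRCh37, without roles; the gene annotation and counting strand are not given in the sources used here. No value was normalised before deposit, as judged from whole numbers with differing totals.

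Genes were filtered with filterByExpr and scaled with TMM factors, and the 12 RT-112 libraries were fitted by group with the quasi-likelihood test of edgeR 4.0.16 in R 4.3.3. P-values were adjusted by Benjamini-Hochberg over all 15645 tested genes, with calls made at adjusted p-values under 0.05. CPM values are TMM-scaled, except the summed CPM of marker genes and of the 58 genes of J82, which were scaled to total counts alone. The difference between lines was the interaction term over all 24 libraries. In simulated counts, changes were planted only in genes with a mean of about 3 log2 CPM or more, so recovery at lower levels was not measured. For the main comparison (15404 genes), 97% of genes changed by 1 log2 unit were recovered and 13 unchanged genes were called. For the difference between lines (16936 genes) 63% were recovered at that size. All groups had the same simulated mean apart from the planted changes, so genes near 0 in 1 line were not covered.

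Named genes were CD44, the 14 largest increases and 14 largest decreases among called genes that averaged a log2 CPM of 3 or more and did not overlap between groups, and from each list up to 6 called genes and 3 others. Members and lists were chosen with earlier results of these data known. Clone names and small noncoding RNAs were not named, and a few other genes are not reported here. Chromosomes and promoter sequences came from RefSeq (GRCh38.p14), which matched 93.6% of tested symbols, and gene overlaps, lengths and GC content from GENCODE. The labels do not say what the replicate numbers mark, so the main fit had no replicate block. Same-numbered libraries did not deviate together (r of 0.0214, 0.0367 and 0.00566). DESeq2 1.42.0, other scalings and filters, other sets of libraries and leaving out each library were tried.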

Additional observations from a re-analysis of the deposited data

Results flagged for a closer look

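The change between CD44v6 and CD44 Low differed between RT-112 and J82 for 1312 genes by the interaction term (edgeR, adjusted p under 0.05). All values here are the RT-112 change minus the J82 change on the log2 scale. Among the largest increases in RT-112, the difference was 0.91 for NT5E, 1.90 for CD109, 1.54 for H3C3, 2.37 for CYBRD1, 1.58 for CPVL, 1.37 for SCARA3 and 2.17 for H19. Among the largest decreases it was -2.11 for FLG, -3.38 for HPGD, -1.78 for DENND2D, -0.92 for DOCK11 and -1.18 for SLC16A7.

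Of genes chosen from the lists after their values were seen, the adhesion genes ITGB4 and FN1 differed by 1.86 and 2.05. The cell cycle genes UBE2C and CDC25B differed by 0.83 and 1.27. The surface proteins CDCP1, ADAM10 and ABCG2 differed by -2.56, -1.20 and -1.25, and KRT7 by -1.42.

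The 12 largest differences by the naming rule were in genes at or near 0 in one of the lines, so that only their adjusted p-values are given. The change was more negative in RT-112 for DOCK8 (6.4e-05), INPP5D (0.0175), LAYN (0.0474), SPOCD1 (0.000369), SHROOM2 (0.000318) and CRABP2 (0.0168). It was more positive for IGF2 (0.0488), SLAIN1 (0.000559), PAPPA (0.00725), SULF2 (0.00953), NRK (0.0165) and IGFBP5 (0.0198).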

How the results depend on the processing

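The number of called genes stayed within 1.5 times of 2504 under other scalings (2509 and 2559), without a filter (1912), at a mean of at least 50 counts (2596), with DESeq2 (3163), with only the 6 libraries (2650), with all 24 (2341) and with the GC and length correction added after the data were seen (2707). It was 39 (28 higher, 11 lower) when a log2 change of at least 1 was tested. Leaving out 1 library gave 1004 (without CD44v6 replicate 3) to 2239 genes (without CD44 Low replicate 3). With a replicate block, which the data did not bear out as a pairing, it was 2039, and for the difference between lines 1265. The difference between lines was called for 2095 genes by DESeq2, and for 766 (without RT-112 CD44v6 replicate 3) to 1794 genes (without J82 CD44v6 replicate 2) with 1 library left out. MGST1 was reversed by the GC and length correction (0.12), where it was not called, and the cause was not tested. At 17610543 to 24419670 counts, genes with few reads limit the precision, and 110 genes had a 0 beside a summed count of at least 100.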

Other observations

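The 13 protein-coding genes of the mitochondrial genome had a median log2 change of 0.964, with 3 higher in CD44v6. Their summed share of counts was 0.297% and 0.315% in CD44 Low replicates 1 and 2 and 0.707% in replicate 3, against 0.681% to 0.703% in CD44v6 and 0.604% to 0.733% in parental cells. Without CD44 Low replicate 3, 13 of them were called higher (edgeR), and 0 or 1 without any other of the 6 libraries.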
